A study of Mus musculus with 36 samples.

Results

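The genes described here are 36 mouse genes of the antioxidant and redox programme that the transcription factor NRF2 is known to drive, set out by name as NRF2 and its inhibitor, glutathione and thioredoxin enzymes, suppliers of NADPH, quinone and drug-metabolising enzymes, haem and iron genes, superoxide and peroxide scavengers, and exporters. A gene was followed through the array probe whose transcript accession maps to its symbol, and was tested if the scanner called that probe well above its background on 3 or more of the 4 arrays of some group. Of the 36 genes, 35 met that rule, out of 32492 gene names tested in all, and each of the 35 was well above background on every one of the 36 arrays. Of the 32492 names, 17874 were gene symbols, and the others were array identifiers that mapped to no symbol. Shares of all genes below are taken over all 32492 names, and shares among symbols alone are not given. Gpx3, a secreted glutathione peroxidase, has 1 probe on the array and did not meet the rule, so it was not tested.

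The cells were Bhas 42, a clone of mouse BALB/c 3T3 fibroblasts that carries the v-Ha-ras oncogene and is used to score transformation in culture; every group shares that oncogene. Treatment began on day 4 of culture and lasted 48 h, with RNA taken on day 6. The treated groups were NM-203, a synthetic amorphous silica, at 1, 2 and 5 µg/cm² (called NM-203 1, NM-203 2 and NM-203 5), diatomaceous earth (DE) at 5 µg/cm², Min-U-Sil 5, a crystalline quartz dust, at 20 µg/cm², and TPA, a phorbol ester tumour promoter, at 0.05 µg/ml. NM-203 and DE were set against water at 2%, Min-U-Sil 5 against a water group of its own, also at 2%, and TPA against DMSO at 0.1%. Each of the 9 groups had 4 one-colour arrays, 1 array a sample. The labels speak of independent experiments without tying arrays to them, so p-values measure only the spread between these samples.

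NRF2, encoded by Nfe2l2, is held in the cytosol and passed to degradation by KEAP1 until electrophiles or oxidants modify KEAP1. NRF2 then enters the nucleus, pairs with a small MAF protein and binds antioxidant response elements near genes that make glutathione, reduce thioredoxin, supply NADPH and export conjugates. Much of this control acts on the NRF2 protein, which arrays do not measure.

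Levels below are log2 intensities minus the 75th percentile of the same array, so a level of 0 equals that percentile, and a change is a difference of group means on that scale with its standard error (SE). A gene was called when its limma p-value, adjusted by Benjamini-Hochberg over all 32492 gene names, was under 0.05. Between 55.1% and 76.2% of probes were well above background per array, no spot was saturated, and replicate arrays correlated at 0.953 to 0.993 over genes. The arrays lay on 5 slides scanned on 2 days; the first day held every array of the water group, and the second held every array of NM-203 2, Min-U-Sil 5 and the Min-U-Sil 5 water. All 9 fibroblast markers examined were well above background on every array, and so were 5 of 8 macrophage markers (Cd68, Csf1r, Lyz2, Aif1 and Itgam), 2 of 5 epithelial (Krt8 and Krt14), 1 of 4 endothelial (Pecam1) and 1 of 4 adipocyte markers (Pparg). The macrophage markers Ptprc and Fcgr1, epithelial Epcam, endothelial Tek and adipocyte Adipoq were well above background on no array. Min-U-Sil 5 replicates 1, 2 and 3 each matched the column of another replicate in the authors' deposited value table best, so the numbering within that group is in doubt, while its membership of the group is not affected. RNA came from whole cultures, so fewer cells of a kind and less RNA per cell cannot be told apart.

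After both NM-203 5 and Min-U-Sil 5, 4 of 6 glutathione and 4 of 5 NADPH members were higher, with 5 of 5 thioredoxin and peroxiredoxin members higher after NM-203 5 and 4 of 5 after Min-U-Sil 5. Extracellular superoxide dismutase and aldehyde oxidase were lower after both. NM-203 5 differed from water in 18 of 35 members, 15 higher and 3 lower, where 33.1% of all genes were called (14% higher and 19.1% lower). Min-U-Sil 5 differed from its water in 17 of 35, 14 higher and 3 lower, where 25.6% of all genes were called (11.6% higher and 13.9% lower). The median change of the 35 members was 0.25 after NM-203 5 and 0.27 after Min-U-Sil 5, beside 0.01 and 0.04 over all genes. The NM-203 5 median depended on the processing. It was 0.07, beside 0.02 over all genes, with normexp background correction and quantile scaling, where 15 members were higher and 6 lower. With arrays centred on the median of genes it was 0.35, beside 0.11. The Min-U-Sil 5 median was 0.25 and 0.26 in these fits. Arrays did not overlap between NM-203 5 and water for 22 members (36.1% of all genes) and between Min-U-Sil 5 and its water for 17 (27.3% of all genes). Within slide 4, which holds 3 treated and 2 control arrays, 15 of the 17 Min-U-Sil 5 calls were kept. That fit called 5999 of all genes, against 8302 with every slide. Fits within slides 1, 3 and 5 left 1 array in a group, with a spread taken from the other groups. For these fits only the median change of the members is given here. After NM-203 5 it was 0.06 within slide 1 and 0.26 within slide 3, beside -0.07 and -0.01 over all genes. After Min-U-Sil 5 it was 0.24 within slide 5, beside -0.01.

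**Figure D1:**
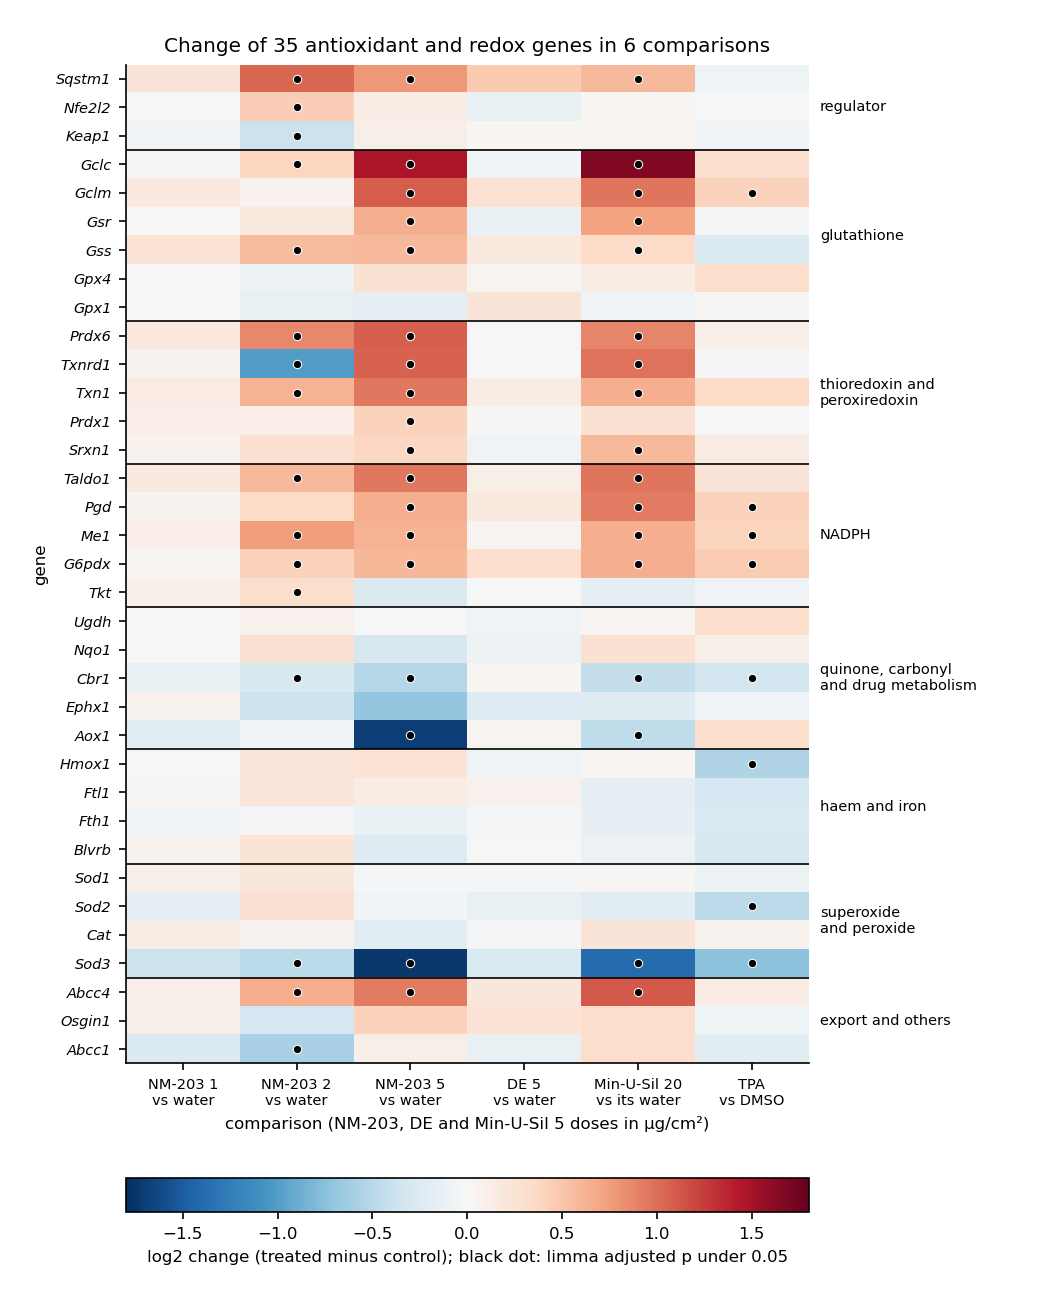
Log2 change of each of the 35 tested members (one line of cells each, grouped by role) in 6 comparisons of a treatment with its control; colour gives the size and direction, and a black dot marks a limma adjusted p under 0.05. The NM-203 5 and Min-U-Sil 5 columns share 17 dots, while the NM-203 1 and DE columns hold 0.

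The member with the highest change in both comparisons was a glutathione synthesis gene. Gclc, the catalytic subunit of the enzyme that sets the rate of glutathione synthesis, read 1.11, 0.95, 1.22 and 0.82 on the NM-203 5 arrays, against -0.39, -0.52, -0.53 and -0.35 on the water arrays. Its change was 1.47 ± 0.10 (SE, adjusted p = 2.59e-12), a 2.78-fold higher level. After Min-U-Sil 5 it read 1.22, 1.1, 1.30 and 1.09, against -0.46, -0.55, -0.68 and -0.30 in its water, a change of 1.67 ± 0.10 (adjusted p = 1.02e-12). Neither pair of groups came near to overlapping. Gclm, the partner subunit that raises the activity of GCLC, read 3.02, 3.03, 3.05 and 2.93 on NM-203 5 arrays and 1.90, 1.93, 1.82 and 1.98 on water arrays, a change of 1.09 ± 0.07 (adjusted p = 2.71e-13). Min-U-Sil 5 arrays read 2.58, 2.70, 2.64 and 2.68, against 1.75, 1.68, 1.66 and 1.62 in their water, a change of 0.97 ± 0.07 (adjusted p = 1e-11). Arrays of one group lay close together for Gclm, and the groups were far apart.

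Gss, which completes glutathione by adding glycine, rose by 0.59 ± 0.11 after NM-203 5 (adjusted p = 9.21e-05) and by 0.34 ± 0.11 after Min-U-Sil 5 (adjusted p = 0.0274). Its 4 Min-U-Sil 5 arrays, at 2.40 to 2.43, all lay above their water, at 1.96 to 2.29. The Min-U-Sil 5 call of Gss was lost without Min-U-Sil 5 replicate 2 or 4 (adjusted p = 0.0559 and 0.0557), without replicate 2 or 3 of its water (0.076 and 0.085), with median centring and in a fit of the groups compared alone. Median centring also ended the Min-U-Sil 5 calls of Aox1 and Sqstm1, and the fit of the groups compared alone that of Sqstm1. Gsr, which returns oxidised glutathione to its reduced form with NADPH, read 3.5, 3.39, 3.41 and 3.30 after NM-203 5, against 2.86, 2.54, 2.85 and 2.71 in water, and 2.81, 3.20, 2.98 and 2.64 after Min-U-Sil 5, against 2.47, 2.07, 2.0 and 2.20 in its water. Both changes passed, at 0.66 ± 0.15 (adjusted p = 0.000542) and 0.72 ± 0.15 (adjusted p = 0.000299). The peroxidases that spend glutathione were not called in either comparison: Gpx4, which reduces lipid peroxides, stood at 0.27 ± 0.11 (adjusted p = 0.0525) after NM-203 5, and cytosolic Gpx1 at -0.17 ± 0.10 (adjusted p = 0.246).

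In the thioredoxin and peroxiredoxin group all 5 members rose after NM-203 5 and 4 of 5 after Min-U-Sil 5. Txnrd1, the cytosolic reductase that recharges thioredoxin, read 3.94, 4.00, 4.03 and 3.57 after NM-203 5, against 2.84, 2.77, 2.80 and 2.90 in water, a change of 1.06 ± 0.13 (adjusted p = 8.84e-08). It read 2.84, 2.54, 3.15 and 2.61 after Min-U-Sil 5, against 1.5, 1.79, 1.85 and 2.06 in its water, a change of 0.98 ± 0.13 (adjusted p = 6.89e-07). On this probe, the brighter of 2, the Min-U-Sil 5 arrays stood near the level of the first water group while standing well above their own water. The second probe of Txnrd1 gave changes of 0.95 ± 0.10 and 0.92 ± 0.10. There the Min-U-Sil 5 arrays read 2.89, 2.88, 3.03 and 2.85, above the first water (2.19, 2.20, 1.84 and 2.15) and their own (2.21, 1.81, 1.96 and 1.98).

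Txn1, thioredoxin itself, read 5.65, 5.50, 5.69 and 5.52 after NM-203 5, against 4.78, 4.61, 4.54 and 4.62 in water, and its change was 0.95 ± 0.14 (adjusted p = 1.98e-06). After Min-U-Sil 5 the change was 0.65 ± 0.14 (adjusted p = 0.000567). Prdx6, a peroxiredoxin that also acts on phospholipids, read 5.63, 5.13, 5.12 and 4.71 after NM-203 5, against 4.10, 4.01, 4.02 and 4.16 in water. The spread among those NM-203 5 arrays was wide, yet the lowest lay above every water array, and the change was 1.08 ± 0.16 (adjusted p = 3.82e-06), with 0.88 ± 0.16 (adjusted p = 0.000109) after Min-U-Sil 5. Its second probe gave 1.27 ± 0.15 and 1.12 ± 0.15. Srxn1, sulfiredoxin, which restores over-oxidised peroxiredoxins, changed by 0.37 ± 0.11 (adjusted p = 0.00958) after NM-203 5 and 0.58 ± 0.11 (adjusted p = 0.000196) after Min-U-Sil 5; without water replicate 3 the Srxn1 change after NM-203 5 was 0.30 (adjusted p = 0.058). Prdx1 was the member called after NM-203 5, at 0.41 ± 0.11 (adjusted p = 0.00252), but not after Min-U-Sil 5, at 0.27 ± 0.11 (adjusted p = 0.0583); the difference between these effects was -0.14 ± 0.15 (adjusted p = 0.922). Probes for Txn1 and Prdx6 may also bind related gene copies, which was not tested.

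Of the NADPH group, 4 of 5 members rose in both comparisons. Taldo1, transaldolase of the pentose phosphate pathway, read 5.59, 5.41, 5.21 and 5.08 after NM-203 5, against 4.37, 4.43, 4.30 and 4.39 in water, a change of 0.95 ± 0.10 (adjusted p = 3e-09). After Min-U-Sil 5 it read 5.29, 5.42, 5.46 and 5.25, against 4.45, 4.36, 4.22 and 4.50, a change of 0.97 ± 0.10 (adjusted p = 5.74e-09). Both treated groups stood clear of their controls at almost the same distance. G6pdx, the pathway's first NADPH-making enzyme, changed by 0.60 ± 0.10 and 0.65 ± 0.10 (adjusted p = 2.46e-05 and 1.37e-05, NM-203 5 first). Pgd, its next NADPH-making step, changed by 0.65 ± 0.13 and 0.93 ± 0.13 (adjusted p = 0.000161 and 2.1e-06). Me1, malic enzyme, changed by 0.63 ± 0.11 and 0.65 ± 0.11 (adjusted p = 4.27e-05 and 4.08e-05). Tkt, transketolase, was not called: it stood at -0.26 ± 0.11 after NM-203 5 (adjusted p = 0.07) and -0.17 ± 0.11 after Min-U-Sil 5 (adjusted p = 0.306).

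Among the regulators, neither Nfe2l2 nor Keap1 passed after NM-203 5 or Min-U-Sil 5. Both were called after NM-203 2 against water, as given below. Nfe2l2 read 2.94, 2.71, 2.73 and 2.51 after NM-203 5, against 2.50, 2.51, 2.60 and 2.70 in water, and the groups overlapped, at 0.14 ± 0.13 (95% interval -0.12 to 0.41, adjusted p = 0.475). After Min-U-Sil 5 its change was 0.03 ± 0.13 (interval -0.24 to 0.29). Keap1 stood at 0.10 ± 0.11 and 0.05 ± 0.11. Sqstm1, the autophagy adaptor p62 that can draw KEAP1 away from NRF2, read 6.38, 6.38, 6.14 and 5.91 after NM-203 5, against 5.48, 5.50, 5.11 and 5.6 in water, and rose by 0.78 ± 0.17 (adjusted p = 0.000358). After Min-U-Sil 5 it rose by 0.58 ± 0.17 (adjusted p = 0.00913), although its arrays overlapped with their water, and without Min-U-Sil 5 replicate 2 its change was 0.45 (adjusted p = 0.0581).

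No quinone, carbonyl or drug-metabolising member was higher in either comparison, and 2 of 5, Aox1 and Cbr1, were lower in both. Nqo1, a textbook NRF2 target that reduces quinones, read 0.47, 0.30, 0.28 and 0.72 after NM-203 5, against 0.81, 0.75, 0.79 and 0.60 in water, an overlapping difference of -0.29 ± 0.18 (interval -0.65 to 0.06, adjusted p = 0.23). After Min-U-Sil 5 it stood at 0.28 ± 0.18 (interval -0.08 to 0.64, adjusted p = 0.285). Aox1, an aldehyde oxidase that itself produces oxidants, read -3.53, -3.72, -3.61 and -3.16 after NM-203 5, against -1.90, -1.60, -1.88 and -1.85 in water. All NM-203 5 arrays lay far below all water arrays, a change of -1.69 ± 0.15 (adjusted p = 1.79e-10). After Min-U-Sil 5 Aox1 read -1.74, -1.60, -1.64 and -1.67, against -1.02, -1.49, -1.15 and -1.17 in its water, a smaller change of -0.46 ± 0.15 (adjusted p = 0.0213). That call was lost without Min-U-Sil 5 replicate 1 (adjusted p = 0.0567) and without replicate 1 or 3 of its water (0.0832 and 0.0504). Cbr1, a carbonyl reductase, fell by 0.52 after NM-203 5 and by 0.43 after Min-U-Sil 5 (SE 0.09 each, adjusted p = 4.26e-05 and 0.000604). Median centring ended the NM-203 5 calls of Cbr1 and Srxn1, and the Min-U-Sil 5 call of Cbr1 was lost within slide 4. Ephx1, an epoxide hydrolase, and Ugdh, which makes UDP-glucuronate, did not pass, at -0.69 ± 0.38 and -0.01 ± 0.11 after NM-203 5. Ephx1 still read 4.54 to 5.28 on NM-203 5 arrays, all below the 5.59 to 5.73 of water, and it passed in a fit of the groups compared alone; NM-203 2 replicate 2, at 2.96, enters the spread that all groups share.

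No haem or iron member passed in either comparison. Hmox1, haem oxygenase 1 and a common stress marker, read 4.57, 4.65, 4.00 and 4.04 after NM-203 5, against 4.18, 4.10, 3.84 and 4.14 in water, with overlap, at 0.25 ± 0.16 (interval -0.08 to 0.58, adjusted p = 0.282). After Min-U-Sil 5 it stood at 0.04 ± 0.16 (interval -0.29 to 0.38). The ferritin chains Ftl1 and Fth1, which store iron, and Blvrb, a biliverdin reductase, ranged from -0.23 to 0.14 after NM-203 5.

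Of the superoxide and peroxide group only Sod3 passed among its 4 members. Sod3, the secreted superoxide dismutase of the extracellular matrix, read 2.24, 2.22, 1.66 and 2.05 after NM-203 5, against 3.55, 3.74, 3.91 and 3.88 in water, a change of -1.73 ± 0.13 (adjusted p = 1.87e-11) and 3.32-fold lower. After Min-U-Sil 5 it read 2.23, 1.96, 2.44 and 2.42, against 3.67, 3.67, 3.5 and 3.75 in its water, a change of -1.38 ± 0.13 (adjusted p = 3.94e-09). In both comparisons every treated array lay at least 1 log2 unit below every control array. Cytosolic Sod1, mitochondrial Sod2 and catalase (Cat) stood at -0.04, -0.05 and -0.19 after NM-203 5 and at 0.02, -0.21 and 0.23 after Min-U-Sil 5, none called. Fibroblast markers moved alongside: 6 of 9 were lower after NM-203 5 and 6 of 9 after Min-U-Sil 5, and the sum of their linear levels was 451 to 606 on NM-203 5 arrays against 700 to 818 on water arrays, and 501 to 571 on Min-U-Sil 5 arrays against 693 to 941 on those of its water. Macrophage markers gave sums of 14.7 to 20.2 after NM-203 5 against 18.8 to 27.5 in water. The part of these shifts in the Sod3 and Aox1 values was not tested.

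Abcc4, a pump for conjugates and cyclic nucleotides, read 0.20, 0.43, 0.22 and -0.04 after NM-203 5, against -0.70, -0.73, -0.71 and -0.75 in water, and 0.62, 0.76, 0.83 and 0.61 after Min-U-Sil 5, against -0.42, -0.66, -0.19 and -0.30 in its water. The changes were 0.93 ± 0.12 (adjusted p = 1.21e-07) and 1.1 ± 0.12 (adjusted p = 1.43e-08), with no overlap in either. Abcc1, a related pump for glutathione conjugates, and Osgin1, an oxidative-stress-induced growth inhibitor, did not pass, at 0.11 ± 0.14 and 0.42 ± 0.25 after NM-203 5.

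**Figure D2:**
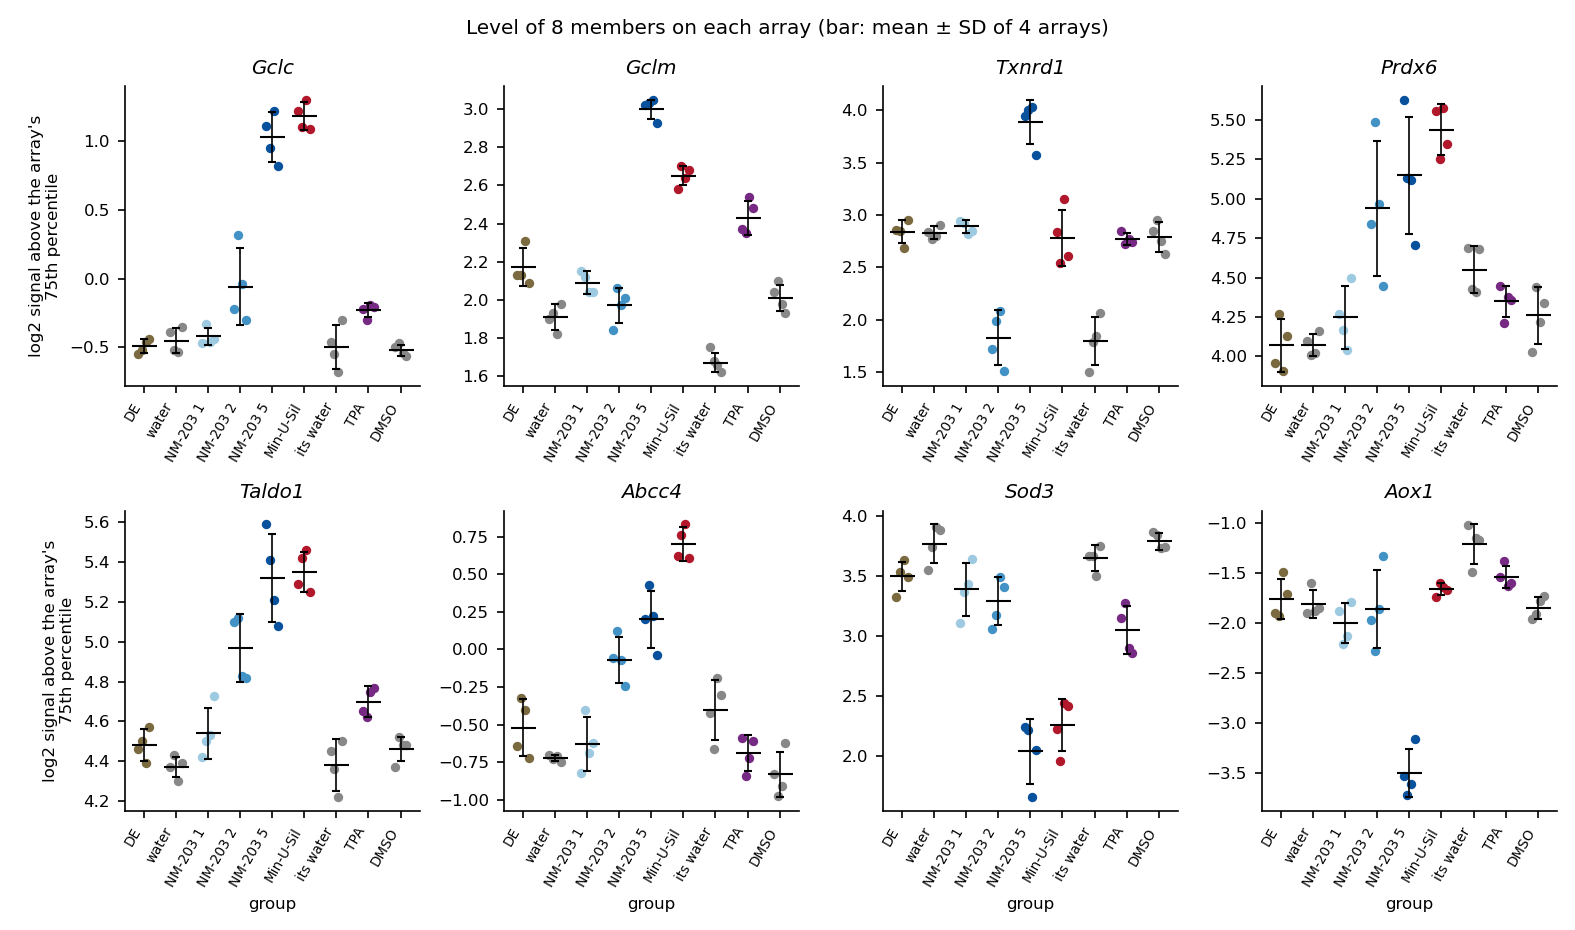
Level of 8 members on each of the 36 arrays (log2 intensity above the array's 75th percentile), with a bar at the mean and whiskers of 1 SD over 4 arrays; groups run from DE and water through the NM-203 doses to Min-U-Sil 5 with its water and TPA with DMSO. Gclc stands at 0.82 to 1.22 on NM-203 5 arrays and at 1.09 to 1.30 on Min-U-Sil 5 arrays, and at or below 0.32 elsewhere, while Aox1 stands apart on the NM-203 5 arrays.

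The amorphous and the crystalline silica were compared through the difference of their effects, each against its own water, at doses that differ (Min-U-Sil 5 at 20 and NM-203 at 5 µg/cm²). All 17 members called after Min-U-Sil 5 were called after NM-203 5 in the same direction, which is 94.4% of the 18 called after NM-203 5. Over the 35 members the 2 sets of changes correlated at Pearson's r = 0.91, beside 0.76 over all 32492 genes, as a description across genes that are not independent. The difference of effects was called for 1 of 35 members, where 0.2% of all genes were called (0.108% higher and 0.0923% lower). That member was Aox1, whose change after Min-U-Sil 5 was higher than after NM-203 5 by 1.24 ± 0.21 (adjusted p = 0.0129); it did not pass with normexp background correction and quantile scaling (0.61, adjusted p = 0.397), with centring on the median of genes (1.13, adjusted p = 0.25) or in a fit of these 4 groups alone (adjusted p = 0.065). For Gclc the difference was 0.20 ± 0.15 (interval -0.10 to 0.50), for Gclm -0.12 ± 0.10 (interval -0.32 to 0.08), for Txnrd1 -0.07 ± 0.18 (interval -0.45 to 0.30) and for Sod3 0.35 ± 0.19 (interval -0.04 to 0.74). Nqo1 had the next highest difference, at 0.58 ± 0.25 (interval 0.07 to 1.08, adjusted p = 0.558).

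**Figure D3:**
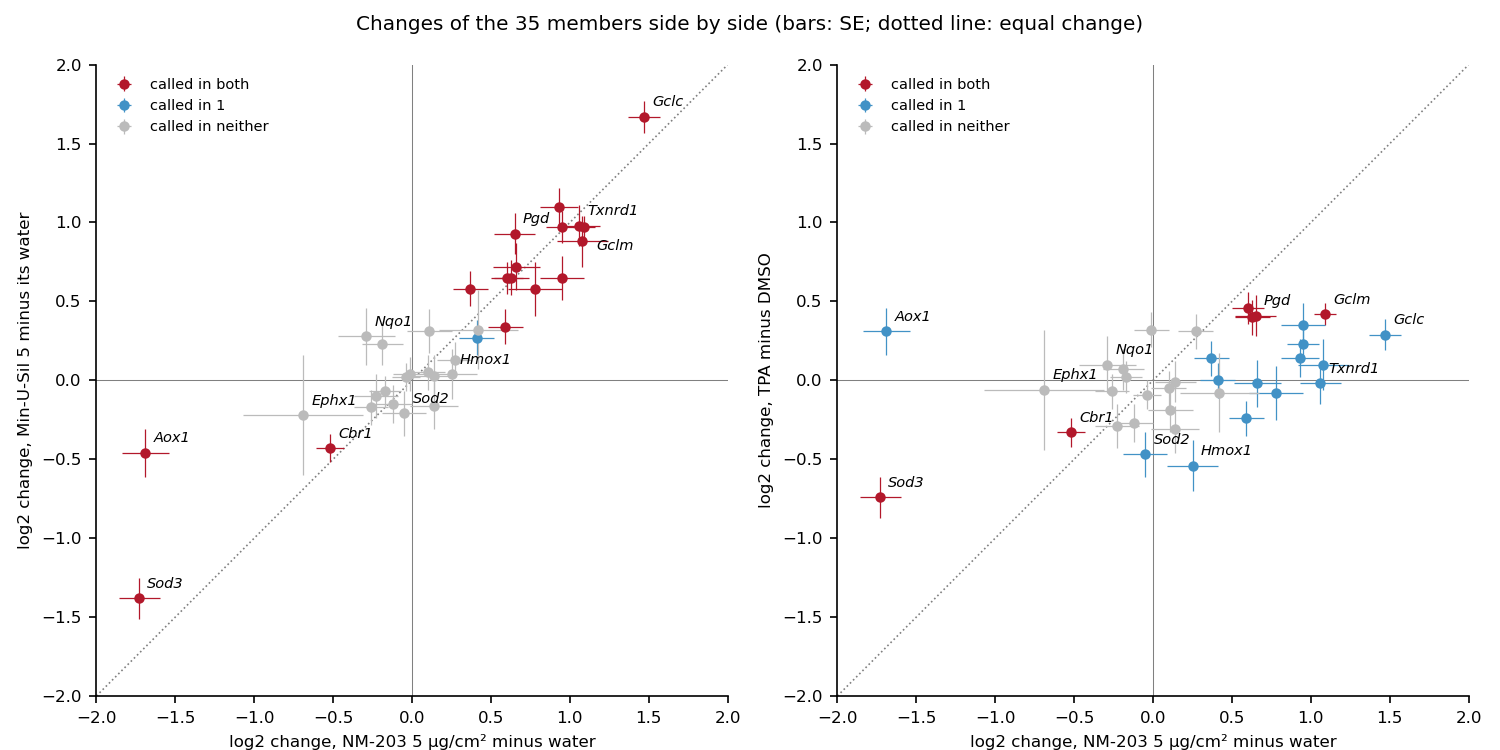
Log2 change of the 35 members after Min-U-Sil 5 (left) and after TPA (right), on the vertical axes, against that after NM-203 5 on the horizontal axes; bars are SE, the dotted line marks equal change, and colours mark members called in both, in 1 or in neither comparison. In the left panel 17 members are called in both and Aox1 lies off the line; in the right panel 6 are called in both and Gclc, Txnrd1 and Aox1 lie off it.

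Because 14 members rose after both silicas, their promoters were read for the antioxidant response element core, TGACNNNGC, on either strand, in windows from 250 bases before to 50 bases after each RefSeq transcript start (GRCm38.p6). Windows were present for 30 of the 36 members and for 11 of the 14 that rose after both. The core was found for 7 of those 11 (63.6%), for 4 of 17 other members (23.5%) and for 0 of 2 that fell, Aox1 and Cbr1; it was found for 14% of all 27025 genes with a window and in 12.4% of all 32851 windows. The 7 were Gclm, Txnrd1, Srxn1, Abcc4, G6pdx, Pgd and Me1. A gene counted if any of its windows matched, and Txnrd1, Abcc4, Pgd and Me1 had several windows, which gives more room for a match. Gclc, Gsr and Prdx6 rose after both silicas but had no window. The members were listed as genes of the NRF2 programme, so a share above that of all genes may come from the choice of the list. The following 4 windows are shown to place the match in genes of glutathione, thioredoxin and NADPH supply; each is written 5′ to 3′ on the gene's own strand with the matching bases in capitals. They are Gclm at chr3:122245307-122245606 (plus strand), Txnrd1 at chr10:82858956-82859255 (plus strand, the only one of its 3 windows with a match), Me1 at chr9:86695865-86696164 (minus strand) and G6pdx at chrX:74428831-74429130 (minus strand).
Gclm: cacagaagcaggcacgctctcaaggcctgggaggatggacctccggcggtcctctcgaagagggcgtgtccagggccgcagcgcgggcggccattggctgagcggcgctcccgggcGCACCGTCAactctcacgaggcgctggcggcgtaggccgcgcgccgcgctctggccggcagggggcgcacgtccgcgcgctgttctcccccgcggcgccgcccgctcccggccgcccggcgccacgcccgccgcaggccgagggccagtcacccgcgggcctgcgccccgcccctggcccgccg
Txnrd1: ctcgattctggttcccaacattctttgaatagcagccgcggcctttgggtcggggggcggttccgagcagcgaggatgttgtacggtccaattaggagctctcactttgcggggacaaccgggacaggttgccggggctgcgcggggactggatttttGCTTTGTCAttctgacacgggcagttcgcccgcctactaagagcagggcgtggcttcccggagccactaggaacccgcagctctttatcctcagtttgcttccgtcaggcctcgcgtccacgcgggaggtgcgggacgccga
Me1: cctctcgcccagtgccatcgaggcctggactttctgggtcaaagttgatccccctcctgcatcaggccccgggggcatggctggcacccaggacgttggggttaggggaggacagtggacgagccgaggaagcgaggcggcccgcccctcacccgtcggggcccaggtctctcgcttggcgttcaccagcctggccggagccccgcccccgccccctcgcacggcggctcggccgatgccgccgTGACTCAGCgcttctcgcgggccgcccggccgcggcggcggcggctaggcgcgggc
G6pdx: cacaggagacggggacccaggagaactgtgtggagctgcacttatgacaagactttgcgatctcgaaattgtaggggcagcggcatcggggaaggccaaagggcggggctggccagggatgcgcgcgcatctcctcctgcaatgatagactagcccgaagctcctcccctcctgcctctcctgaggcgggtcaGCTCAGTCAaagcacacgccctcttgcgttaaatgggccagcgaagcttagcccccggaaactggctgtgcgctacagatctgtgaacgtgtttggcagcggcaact
The first base of the match lies at position -134 from the start in Gclm, -92 in Txnrd1, -57 in G6pdx and -6 in Me1. The core is on the opposite strand in Gclm, Txnrd1 and G6pdx, where it reads GCNNNGTCA, and on the gene's strand in Me1. In Me1 it overlaps the AP-1 heptamer TGANTCA, which 8.97% of all genes with a window hold; in the other 3 it does not. These are matches of letters and were not tested as binding sites.

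Across NM-203 doses the members did not form a single series. NM-203 1 gave 0 of 35 calls, where 0.0862% of all genes were called (0.0431% higher and 0.0431% lower); 3 members and 1864 genes had an unadjusted p under 0.05. Its changes ran from -0.38 to 0.24, and Gclm, at 0.18 ± 0.07 (adjusted p = 0.573), was the member whose arrays did not overlap with water (5.64% of all genes). NM-203 2 gave 16 calls, 11 higher and 5 lower, where 25% of all genes were called (16.2% higher and 8.85% lower), with a median change of 0.22, beside 0.11 over all genes. Its arrays did not overlap with water for 14 members (22.4% of all genes). Of the 16 called members, 11 were called in the same direction after NM-203 5 and 1, Txnrd1, in the opposite one, both comparisons sharing the water arrays. Mean levels at water and at 1, 2 and 5 µg/cm² were -0.45, -0.42, -0.06 and 1.03 for Gclc, 4.37, 4.54, 4.97 and 5.32 for Taldo1, -0.72, -0.63, -0.07 and 0.20 for Abcc4, and 3.77, 3.39, 3.29 and 2.04 for Sod3. These 4 members stepped in 1 direction along the doses. So did others, among them Prdx6, Gss, G6pdx, Pgd, Txn1 (4.64, 4.79, 5.26 and 5.59) and Cbr1 (2.03, 1.91, 1.74 and 1.51). Gclm did not, at 1.91, 2.09, 1.97 and 3.00, nor did Aox1, at -1.81, -2.0, -1.86 and -3.5.

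The NM-203 2 values depend on the control they are set against. The NM-203 2 arrays and those of the second water group were all scanned on the second day, and the second water group differed from the first in 14 of 35 members, 5 higher and 9 lower, where 24.5% of all genes were called (18.8% higher and 5.67% lower), and 14 members did not overlap (23.3% of all genes). Set against the second water group, NM-203 2 kept 7 of its 16 calls in the same direction, namely Gclc, Txn1, Abcc4, G6pdx, Taldo1, Me1 and Sqstm1, and had 15 in all, 14 higher and 1 lower, where 15.6% of all genes were called (7.69% higher and 7.88% lower); 9 members did not overlap (12.7% of all genes). The calls not kept were Nfe2l2, Gss, Prdx6 and Tkt, higher against the first water, and Txnrd1, Abcc1, Sod3, Keap1 and Cbr1, lower against it. With slide as a block 6 of the 16 passed, where 2327 of all genes were called. With scan day as a block 4 passed, where 1716 were called, against 8125 with no block. Only NM-203 1 and NM-203 5 had arrays on both days, with NM-203 1 replicate 4 and NM-203 5 replicate 1 on the second. Both blocks link the days through those arrays alone, so a call lost there cannot be told from an imprecise estimate of the day. Gclc stood at 0.39 ± 0.10 (adjusted p = 0.00589) against the first water and 0.44 ± 0.10 (adjusted p = 0.00451) against the second. Me1 stood at 0.75 ± 0.11 and 0.50 ± 0.11, Taldo1 at 0.59 ± 0.10 and 0.58 ± 0.10, and Sqstm1 at 1.03 ± 0.17 and 0.60 ± 0.17, all called. Nfe2l2 was called against the first water, at 0.44 ± 0.13 (limma adjusted p = 0.0126), but not against the second. Its mean level was 3.02 after NM-203 2, 2.58 in the first water and 2.97 in the second.

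Txnrd1 shows this most plainly. Its brighter probe read 1.72, 1.99, 2.08 and 1.51 after NM-203 2, against 2.84, 2.77, 2.80 and 2.90 in the first water, a change of -1.0 ± 0.13 (adjusted p = 1.83e-06). The second water read 1.5, 1.79, 1.85 and 2.06, and against it the difference was 0.03 (adjusted p = 0.902). The dimmer probe of the gene was not called: it read 2.06, 2.25, 2.12 and 2.02 after NM-203 2, against 2.19, 2.20, 1.84 and 2.15 in the first water, at 0.02 ± 0.10. On that brighter probe NM-203 1 replicate 4 and NM-203 5 replicate 1, scanned on the second day on slide 5, read 2.85 and 3.94, close to the other arrays of their groups; the part of scan day in these values was not tested. Prdx6 shows the opposite split, with NM-203 2 against the first water at 0.87 ± 0.16 on its brighter probe and -0.10 ± 0.15 on the dimmer. Keap1 also turned, at -0.38 ± 0.11 (adjusted p = 0.011) against the first water and 0.23 (adjusted p = 0.15) against the second; without NM-203 2 replicate 2 the first value was -0.26 (adjusted p = 0.0716). The 6 comparisons of a treatment with its control gave 54 pairs of a comparison and a member with several probes. Of these pairs, 48 had the same call on every probe, 6 had calls on some probes, 4 of them for NM-203 2, and 0 had opposite calls.

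**Figure D4:**
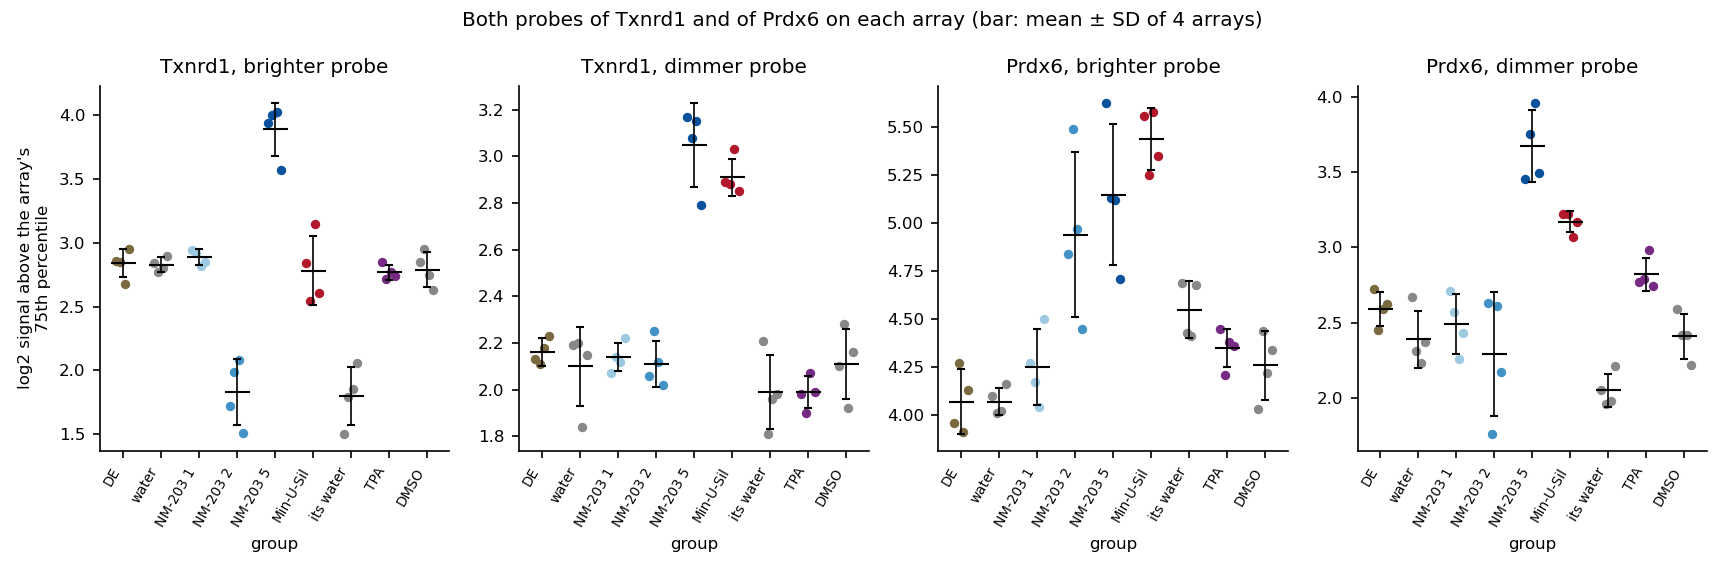
Level on each array (log2 intensity above the array's 75th percentile) of the brighter and the dimmer probe of Txnrd1 and of Prdx6, with the mean and 1 SD of 4 arrays. The brighter Txnrd1 probe stands at 1.51 to 2.08 after NM-203 2 and at 1.5 to 2.06 in the water of Min-U-Sil 5, against 2.77 to 2.90 in the first water, while the dimmer probe stands at 2.02 to 2.25 after NM-203 2 and at 1.81 to 2.21 in the water of Min-U-Sil 5, against 1.84 to 2.20 in the first water.

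Diatomaceous earth called 0 of 35 members at 5 µg/cm², where 1.01% of all genes were called (0.557% higher and 0.449% lower); 4 members and 3418 genes had an unadjusted p under 0.05. Gclm came nearest, reading 2.13, 2.13, 2.31 and 2.09 after DE, against 1.90, 1.93, 1.82 and 1.98 in water, a non-overlapping difference of 0.26 ± 0.07 (adjusted p = 0.0639). G6pdx, Gpx1 and Sqstm1 also did not overlap with water, at 0.30, 0.23 and 0.47, which makes 4 members where 7.4% of all genes did so. Compared directly at the same dose, NM-203 5 differed from DE in 18 members, 14 higher and 4 lower, where 29.2% of all genes were called (14% higher and 15.2% lower), and 19 members did not overlap (28.4% of all genes). Gclc stood 1.52 ± 0.10 higher after NM-203 5 than after DE (adjusted p = 3.39e-12), Prdx6 1.08 ± 0.16 higher and Txnrd1 1.05 ± 0.13 higher, while Aox1 changed by -1.75 ± 0.15 and Sod3 by -1.46 ± 0.13. Gpx1 was lower after NM-203 5 than after DE, at -0.40 ± 0.10 (adjusted p = 0.00252). Also called were Taldo1, Gclm, Txn1, Gsr, Abcc4, Me1, Pgd, Srxn1, Gss, Prdx1 and G6pdx, higher after NM-203 5, and Cbr1, lower. Sqstm1, at 0.31 ± 0.17, was not called (interval -0.03 to 0.65). Within slides 1 and 3, 8 and 11 members were called, where 3728 and 5704 of all genes were. Slide 1 holds 2 NM-203 5 arrays and 1 DE array and slide 3 holds 1 and 2, so the lone array was assumed to vary like the other groups.

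After TPA, 3 of 5 NADPH members and Gclm were higher and Sod3 was lower, with Gclc and Txnrd1 not called. It differed from DMSO in 8 of 35, 4 higher and 4 lower, where 11.7% of all genes were called (4.89% higher and 6.78% lower), and the median change was -0.01, beside -0.04 over all genes. Arrays did not overlap for 16 members (19.7% of all genes). G6pdx read 3.12, 3.25, 3.24 and 3.13 after TPA, against 2.72, 2.73, 2.76 and 2.70 in DMSO, with no overlap, a change of 0.46 ± 0.10 (adjusted p = 0.00287). Gclm read 2.37, 2.35, 2.54 and 2.48, against 2.04, 2.10, 1.98 and 1.93, a change of 0.42 ± 0.07 (adjusted p = 4.64e-05). Pgd and Me1 rose by 0.41 ± 0.13 and 0.40 ± 0.11 (adjusted p = 0.0359 and 0.018), while Taldo1, at 0.23 ± 0.10 (adjusted p = 0.125), and Tkt, at -0.07 ± 0.11 (adjusted p = 0.765), were not called. The Taldo1 result depends on the probe. Its second, dimmer probe was called higher after TPA, at 0.45 ± 0.10 (limma adjusted p = 0.00133), and Taldo1 also passed when its probes were averaged. Gclc stood clear of DMSO on all 4 arrays, at 0.29 ± 0.10, but was not called (adjusted p = 0.0683).

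The decreases after TPA were in Sod3, Hmox1, Sod2 and Cbr1. Sod3 read 3.15, 3.28, 2.90 and 2.86, against 3.87, 3.84, 3.73 and 3.74 in DMSO, all lower, a change of -0.74 ± 0.13 (adjusted p = 0.000215). Hmox1 read 3.88, 3.79, 3.56 and 3.57, against 4.01, 4.23, 4.19 and 4.53, also with no overlap, at -0.54 ± 0.16 (adjusted p = 0.0263). Sod2 and Cbr1 changed by -0.47 ± 0.14 (adjusted p = 0.0269) and -0.33 ± 0.09 (adjusted p = 0.0184). The TPA count rests on few arrays: it was 3 without TPA replicate 4, and 5 without TPA replicate 3, DMSO replicate 2 or DMSO replicate 4. It was 4 with slide as a block and 0 within slide 1, which holds 2 TPA arrays and 1 DMSO array. Without TPA replicate 4, Pgd, Me1, Hmox1, Sod2 and Cbr1 no longer passed, and each was lost in 4 or 5 of the 8 fits that left out 1 array, with adjusted p-values of up to 0.123. With arrays centred on the median of genes it was 2, and the share of all called genes that were higher was 55.6%, against 41.9% as reported. All genes called for TPA numbered 1747 with that centring and 3155 with slide as a block, against 3792 as reported. They numbered 2844 to 3984 over the fits that left out 1 array.

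The effect of TPA was also set against that of NM-203 5, each taken against its own control. The difference was called for 13 of 35 members, 2 higher and 11 lower for TPA, where 14.8% of all genes were called (7.05% higher and 7.73% lower). Gclc stood at -1.19 ± 0.15 in this difference (adjusted p = 1.32e-06), Txnrd1 at -1.08 ± 0.18 (adjusted p = 9.19e-05), Prdx6 at -0.98 ± 0.23 (adjusted p = 0.00336), Gss at -0.83 ± 0.16 (adjusted p = 0.000411) and Abcc4 at -0.79 ± 0.16 (adjusted p = 0.000905). Sqstm1, Hmox1, Taldo1, Gsr, Gclm and Txn1 made up the other lower calls, at -0.86 to -0.60. Aox1 and Sod3 were the higher ones, at 2.0 ± 0.21 (adjusted p = 1.83e-07) and 0.99 ± 0.19 (adjusted p = 0.000422). For G6pdx, Pgd and Me1 the difference was not called, at -0.14 ± 0.15 (interval -0.44 to 0.16), -0.24 ± 0.19 (interval -0.62 to 0.14) and -0.23 ± 0.16 (interval -0.56 to 0.10). Without NM-203 5 replicate 2 the Hmox1 difference was -0.67 (adjusted p = 0.0513). The Gsr difference was lost without TPA replicate 2 (adjusted p = 0.0662), DMSO replicate 2 (0.064) or water replicate 2 (0.0551). The Txn1 difference was lost in 10 of 16 fits that left out 1 array, at adjusted p = 0.0532 to 0.102: those without TPA replicate 1 or 2, DMSO replicate 2, 3 or 4, NM-203 5 replicate 1 or 3, or water replicate 2, 3 or 4. It was also lost with slide as a block, without the filter on dim probes, and, like those of Gsr and Hmox1, with normexp and quantile scaling or median centring. Centring lost the Sqstm1 difference too. The second probes of Gss and Sqstm1 were not called in this difference, at -0.45 ± 0.18 (limma adjusted p = 0.102) and -0.42 ± 0.16 (adjusted p = 0.0692). Those of Txnrd1, Prdx6 and Taldo1 were called lower.

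Other genes of the pathway add the supply of cystine and the partners of NRF2. Of 13 genes that bring in cystine or handle glutathione outside and inside the cell, 6 were higher and 5 lower after NM-203 5, 5 higher and 5 lower after Min-U-Sil 5, and 3 each way after TPA. Among all genes the shares called were 33.1%, 25.6% and 11.7% in these 3 comparisons, and the counts of the 5 lists given here are read beside them as descriptions. Slc7a11, the cystine importer, read -1.38, -1.43, -1.08 and -1.37 after NM-203 5, against -3.49, -4.27, -4.48 and -4.16 in water, a change of 2.79 ± 0.33 (adjusted p = 5e-08). It changed by 2.82 ± 0.33 after Min-U-Sil 5 (adjusted p = 9.89e-08) and by 1.52 ± 0.33 after TPA (adjusted p = 0.00178). Ggt5, a gamma-glutamyl transferase family enzyme that acts on extracellular glutathione conjugates, fell by 3.74 after NM-203 5, by 3.57 after Min-U-Sil 5 and by 1.60 after TPA (adjusted p = 2.45e-12, 2.1e-11 and 5.44e-05). Anpep, a surface peptidase that cleaves the products of such enzymes, changed by -3.68 ± 0.27 after NM-203 5 (adjusted p = 6.93e-12), with 1 of 4 NM-203 5 arrays well above background. Ggt1, an enzyme that breaks down extracellular glutathione, was not well above background on any NM-203 5 array and was at least 2.39-fold lower there than in water, as a bound that sets the dim arrays at the lowest signal well above background.

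Of 16 partners and regulators of NRF2, 2 were higher and 4 lower after NM-203 5, 1 higher and 4 lower after Min-U-Sil 5, and 0 higher and 3 lower after TPA. Maff, a small MAF protein, rose by 1.41 ± 0.27 after NM-203 5 and 1.11 ± 0.27 after Min-U-Sil 5 (adjusted p = 8.33e-05 and 0.00199). Bach1, a repressor that competes with NRF2 for its elements, changed by -0.79 ± 0.10 and -0.64 ± 0.10 (adjusted p = 2.74e-07 and 1.38e-05), and Bach2, its relative, by -1.84 ± 0.16 and -1.18 ± 0.16 (adjusted p = 1.65e-10 and 1.29e-06). Sesn1, a sestrin that p53 induces, fell by 1.48 after NM-203 5 and by 1.1 after Min-U-Sil 5. Bach1 and Ggt1 were singled out after their values were seen. Of 24 further reported NRF2 targets tested, 6 were higher and 9 lower after NM-203 5, and 8 higher and 4 lower after Min-U-Sil 5. The higher ones were led by Slc6a9, a glycine importer, at 1.74 ± 0.11 after NM-203 5, and Akr1b3, an aldose reductase, at 1.18 ± 0.11, and the lower ones by Abcc3, an organic anion pump, at -1.05 ± 0.13. Of 18 other thiol redox genes, 6 were higher and 3 lower after NM-203 5, with Glrx, a cytosolic glutaredoxin, at -1.23 ± 0.11 and mitochondrial Txn2 at 0.75 ± 0.10. Of 12 oxidant-producing enzymes tested, 2 were higher and 4 lower after NM-203 5; Ncf4, an NADPH oxidase subunit, changed by -1.51 ± 0.15. After NM-203 1 none of these 5 lists held a called gene, and after DE the calls were the oxidant-producing genes Xdh, xanthine dehydrogenase, at 0.58 ± 0.14 and Ncf4 at 0.59 ± 0.15, both higher.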

How the data were processed

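Total RNA of 36 Bhas 42 cultures was labelled with Cy3 and hybridised to one-colour Agilent mouse arrays, 1 sample an array, per the labels' protocols. The deposited scanner files hold the intensity of each spot after Agilent Feature Extraction 11.0.1.1, per the submitters' processing notes; the processed intensity was used. The deposited value table holds log2 values that the authors had centred per probe, and served as an alternative. Control spots and outlier spots were left out, log2 intensity was taken minus each array's 75th percentile, spots of a probe were averaged, and each gene was read from its brightest probe, named through its transcript accession in a RefSeq table (GRCm38.p6); 32994 of 56605 probes had a symbol. One limma 3.58.1 fit (R 4.3.3) of 9 group means over 36 arrays, with 27 residual degrees of freedom, gave all comparisons, with p-values adjusted over 32492 names. The fit was tested on simulated data. The number of arrays limits the precision. Per comparison, called members were named, up to 10 in each direction by size of change, and up to 4 of a role were given by array; of other lists up to 3 genes were named. The members and lists were chosen with earlier results of these data known.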

Additional observations from a re-analysis of the deposited data

Results flagged for a closer look

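In 13 of 315 sets of 4 arrays (35 members in 9 groups, 4.13%), a single array stood so far from the other 3 that its gap to the nearest of them, over the set's whole range, exceeded Dixon's 95% value for 4 arrays; chance gives about 1 in 20 such sets. The widest gap was that of Ephx1, at 2.96 on NM-203 2 replicate 2, against 5.95 to 6.16 on the other 3 arrays, and on the same array Osgin1 was also the lowest of its group, at -1.70. Ephx1 read 5.35 on replicate 1 of the water of Min-U-Sil 5, against 5.94 to 6.01 on the others. In the same water group Ftl1 read 7.95 on replicate 1, against 7.42 to 7.44, and Ugdh 3.61 on replicate 4, against 3.11 to 3.18. DMSO replicate 2 was the highest of its group for Ftl1 (7.85, against 7.55 to 7.58), Fth1 (7.76, against 7.49 to 7.53) and Cat (0.84, against 0.74 to 0.75). Fth1 read 7.64 on NM-203 1 replicate 4, against 7.31 to 7.34. Among NM-203 5 arrays, Srxn1 read 2.98 on replicate 3, against 3.07 to 3.08, and Abcc1 1.61 on replicate 2, against 1.86 to 1.89. G6pdx read 3.07 on Min-U-Sil 5 replicate 1, against 3.33 to 3.36, Gclm 2.31 on DE replicate 3, against 2.09 to 2.13, and Aox1 -1.60 on water replicate 2, against -1.90 to -1.85. The cause of these values was not tested.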

How the results depend on the processing

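Members called after leaving out 1 array at a time numbered 18 to 18 for NM-203 5 against water, 14 to 17 for NM-203 2, 0 to 0 for NM-203 1 and for DE, 15 to 19 for Min-U-Sil 5 against its water, 3 to 8 for TPA against DMSO, 17 to 19 for NM-203 5 against DE, 1 to 1 for the Min-U-Sil 5 effect minus the NM-203 5 effect and 11 to 14 for the TPA effect minus the NM-203 5 effect. The NM-203 2 count of 16 was 9 with centring on the median of genes, 6 with slide and 4 with scan day as a block, and 7 in a fit of the groups compared alone. All genes called for NM-203 2 fell as well, from 8125 to 5333, 2327, 1716 and 2912 in that order. Against the water of Min-U-Sil 5 the NM-203 2 change turned for Txnrd1 (0.03) and Keap1 (0.23). The Min-U-Sil 5 count of 17 was 10 within slide 5. The TPA count of 8 was 2 with centring on the median of genes, 4 with slide as a block, 4 in a fit of the groups compared alone and 0 within slide 1. The NM-203 5 against DE count of 18 was 8 within slide 1 and 11 within slide 3. The difference between silica effects, called for 1 member, was called for 0 with normexp and quantile scaling, with centring on the median of genes and in a fit of the groups compared alone. The TPA minus NM-203 5 count of 13 was 2 within slide 1. Apart from the fits leaving out 1 array, each fit above, and every fit within a slide, also called fewer of all genes. The cause of these shifts was not tested, beyond the smaller number of arrays in fits within a slide. Of all genes, 10740 were called after NM-203 5 and 8484 with median centring, which moved the median change of all genes to 0.11. With median centring, the share of called genes that were higher was 60.7% for NM-203 5 against DE (47.8% as reported) and 77.8% for DE against water (55.4%). All genes called numbered 0 to 101 for NM-203 1 and 0 to 904 for DE over the alternatives run.

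Replicate numbers showed no steady pairing of the samples. Deviations of same-numbered arrays correlated at -0.6 to 0.33, over 0.1 in 7 of 28 pairs. Both ends of that range are from Min-U-Sil 5 against its water. The numbering there is in doubt, so that comparison cannot show whether the numbers pair. In the other comparisons the correlations ran from -0.21 to 0.29. With replicate number as a block, members called were 19 for NM-203 5, 16 for NM-203 2, 0 for NM-203 1, 0 for DE, 17 for Min-U-Sil 5, 9 for TPA, 19 for NM-203 5 against DE, 1 for the difference between silica effects and 13 for TPA minus NM-203 5. Of all genes, 10688, 8066, 33, 327, 8248, 3733, 9392, 56 and 4746 were called, in that order. These fits rest in part on the doubtful Min-U-Sil 5 numbering.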
